A study of Mus musculus with 6 samples.

Results

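Interferon-response genes and the genes of MHC class I antigen presentation were followed in the pancreas after deletion of Ptf1a from acinar cells. Members were taken by symbol, as the interferon receptors, the STAT and IRF transcription factors, the antiviral and other interferon-induced gene families, the MHC class I chains and the genes that supply and load class I peptides. The rule matched 70 of the 10245 genes of the table. Of these, 6 share only part of a symbol with the family and are kept apart below. RNA-seq was performed on the whole pancreas of 3 control mice of genotype Ptf1a CreER/+ and 3 Ptf1a cKO mice of genotype Ptf1a CreER/fl. Every mouse received tamoxifen by gavage at 0.25 mg/g on 3 days and was sacrificed on day 14. The CreER allele replaces the coding sequence of Ptf1a, so the control mice were heterozygous for Ptf1a, and recombination was limited to cells that express the Ptf1a locus, which in the adult are acinar cells. In the study's description, mice of both genotypes also carried a Cre-activated EYFP reporter. Control mice were 4 months old and Ptf1a cKO mice 5 months old, so that age and genotype cannot be told apart. Control replicate 1 and Ptf1a cKO replicate 2 were male, and the other 4 mice were female.

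Interferons are secreted cytokines that bind paired receptor chains at the cell surface and act through JAK kinases and STAT proteins. STAT complexes, some of them with IRF9, then induce many genes, among them antiviral enzymes, nucleic acid sensors, guanylate-binding proteins and the machinery of class I presentation. In that machinery the immunoproteasome cuts cytosolic proteins, the TAP transporter carries the peptides into the endoplasmic reticulum, tapasin loads them, and the class I heavy chain with β2-microglobulin displays them to CD8 T cells.

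Values are normalized read counts as the authors scaled them across the libraries, and differences are log2 fold changes of Ptf1a cKO against control from a limma fit over all 10245 genes, with a Benjamini-Hochberg adjusted p under 0.05 as the threshold. Sequencing depth cannot be read from the scaled values. Library medians over all genes ran from 125.0 to 128.5 normalized counts. The targeted gene followed the labels. Control replicates 1 to 3 held 566, 601 and 652 normalized counts of Ptf1a and Ptf1a cKO replicates 1 to 3 held 19.8, 70.1 and 10.2. In what follows, the values of control replicates 1 to 3 stand before those of Ptf1a cKO replicates 1 to 3. Where a call among the 70 genes was lost in a fit without 1 library, the highest adjusted p of those 6 fits is given with the library left out. Calls for single genes outside the 70 are given from the fit with all libraries only, so their stability is not shown. Ptf1a cKO replicate 2 thus kept the most Ptf1a RNA of the 3, and it also kept the most RNA for the digestive enzyme Cpa1 (201637, 348581 and 115381 normalized counts in the Ptf1a cKO libraries, 1265950, 1304140 and 1054650 in the controls). Ptf1a cKO replicate 3 stood apart in lymphocyte and lymph node markers. The count of the 70 genes called, and the calls for several of them, are also given without replicate 2 or replicate 3. Calls in the marker and MHC class II lists are given with all libraries only.

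The promoters of several of these genes hold the letters of interferon response elements. The interferon-stimulated response element, bound by IRF family factors, was searched as the letters GAAA and GAAA with 2 bases between them, and the gamma-activated site, bound by STAT dimers, as TTCNNNGAA. Both strands were read in windows from 250 bases before to 50 bases after the transcription start, as given by RefSeq for GRCm38.p6. A window was found for 54 of the 70 genes, 66 windows in all. The response element was in 18 of the 66 windows (27.3%), against 3.44% of all 32851 windows of the same length. The gamma-activated site was in 14 of the 66 (21.2%), against 8.3% of all windows. Among genes with a window, 7 of 19 that were higher in Ptf1a cKO and 11 of 32 that did not pass held a response element match. The stretches from 150 bases to 1 base before the start are printed for 5 genes, each read 5′ to 3′ on the strand of its gene, with matches in capitals. Among class I chains with a window, only B2m and H2-T23 held the searched letters of a response element. The windows of H2-K1, H2-D1, H2-Q4, H2-Q2 and H2-Q10 matched neither search. Those of H2-K1, H2-D1, H2-Q4 and H2-Q10 do hold tttcacttct, where only the first TTTC keeps the letters. The search does not find elements that depart from its letters, so a window without a match may still hold one. Gbp2 is printed for the GTPases, and Ifitm2 is one of the genes with the element that rose in every Ptf1a cKO library. Bst2 carries a gamma-activated site that runs into a pair of overlapping response elements. A TTTC pair is the same element on the other strand, and a match is a run of letters, not a measured binding site.
B2m, chr2:122147537-122147686, plus strand, GRCm38.p6: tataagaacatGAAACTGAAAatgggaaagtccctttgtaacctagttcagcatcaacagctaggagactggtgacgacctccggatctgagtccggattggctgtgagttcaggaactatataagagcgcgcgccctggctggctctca
H2-T23, chr17:36032702-36032851, minus strand, GRCm38.p6: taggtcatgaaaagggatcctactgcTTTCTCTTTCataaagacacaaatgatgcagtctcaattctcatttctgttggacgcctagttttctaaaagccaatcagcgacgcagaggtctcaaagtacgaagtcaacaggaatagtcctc
Gbp2, chr3:142620513-142620662, plus strand, GRCm38.p6: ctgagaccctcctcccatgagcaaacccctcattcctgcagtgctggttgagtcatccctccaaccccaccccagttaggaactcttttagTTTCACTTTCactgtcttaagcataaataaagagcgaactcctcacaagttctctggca
Bst2, chr8:71537473-71537622, minus strand, GRCm38.p6: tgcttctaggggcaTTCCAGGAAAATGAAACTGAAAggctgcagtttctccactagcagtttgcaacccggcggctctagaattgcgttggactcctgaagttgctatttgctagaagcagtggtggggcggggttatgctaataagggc
Ifitm2, chr7:140955962-140956111, minus strand, GRCm38.p6: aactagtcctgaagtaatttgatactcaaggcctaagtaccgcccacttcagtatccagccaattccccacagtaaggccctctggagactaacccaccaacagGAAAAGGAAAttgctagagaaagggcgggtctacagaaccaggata

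Many interferon-response and class I genes were higher in the Ptf1a cKO pancreas, and few were lower. Of the 70 genes, 27 were higher (38.6%) and 3 lower (4.29%), while 17.1% of all genes were higher and 16.8% lower. These shares over all genes are also the background for the counts by group below. Their median log2 fold change was 0.80, beside 0.04 over all genes. All 3 Ptf1a cKO libraries lay above all 3 controls for 25 of the 70 (35.7%), against 26.5% of all genes, and below them for 3 (4.29%), against 24.3%. These counts were taken from whole tissue, in which a change in the share of cells of a type and a change in RNA per cell cannot be told apart. Markers of several other cell types moved with genotype too, and their values are given after the gene groups. The table holds only genes that reach 27.56 normalized counts in at least 1 library, and 10 of the 70 reach it only in Ptf1a cKO. For those 10 (Irf5, Irf8, Usp18, Oas2, Ifi27l2b, Ifi47, Ifi205, Gbp9, H2-Q5 and Psmb9), entry into the table already required a high Ptf1a cKO value. A rise in them is therefore no independent result, and for those that rose the values are given with no p. Counts out of the 70 genes, here and below, include these 10. Of the other 60, 23 were higher, and their median log2 fold change was 0.74. Among all genes with a control library at or above that level, 15.6% were higher. With all libraries set to the same total, the median of all genes rose to 1.48 and that of the 70 genes to 2.24, and 69 of the 70 were higher and 1 lower. In that setting 9716 of the 10245 genes passed in either direction.

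**Figure D1:**
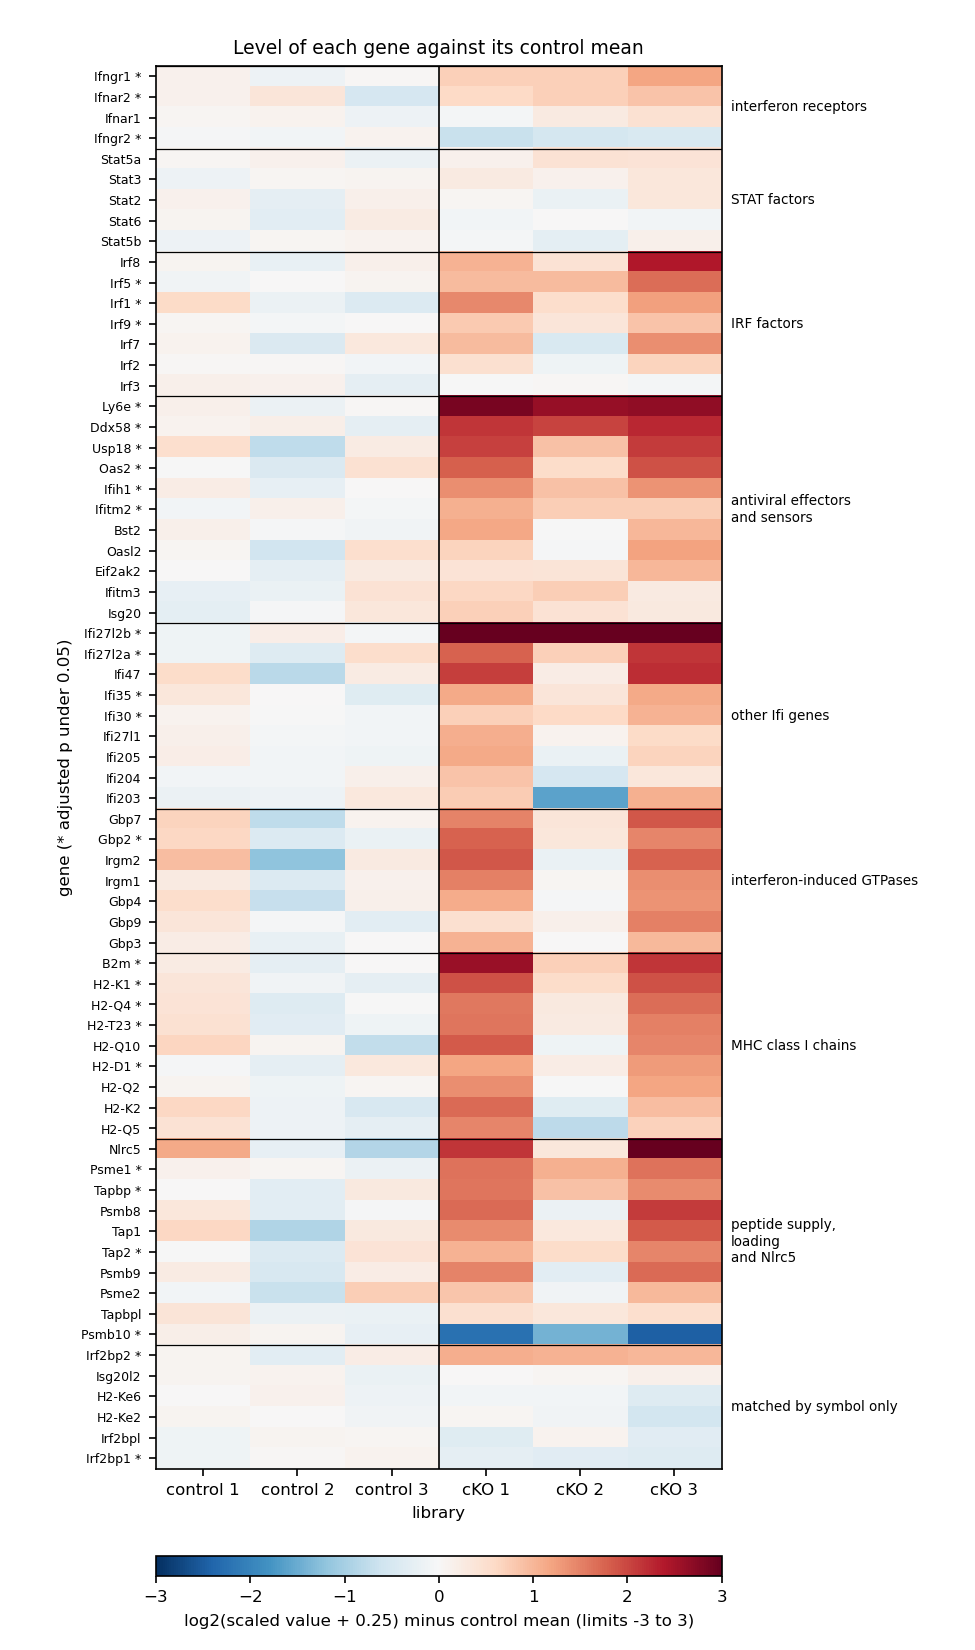
Level of 68 of the 70 genes (rows, by role) in each of the 6 libraries (columns), as log2(scaled value + 0.25) minus the gene's control mean, with color limits at -3 and 3. Ly6e, Ddx58 and Ifi27l2b are high in all 3 Ptf1a cKO libraries and Psmb10 is low in all 3, while MHC class I chains and GTPases are high in Ptf1a cKO replicates 1 and 3 and near the controls in replicate 2.

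Interferon receptors changed in both directions. Ifngr1, the ligand-binding chain of the interferon-γ receptor, was at 94.8, 77.1 and 88.7 normalized counts in the controls and at 145, 144 and 199 in Ptf1a cKO, and rose by 0.87 ± 0.16 on the log2 scale (limma adjusted p = 0.00332). Its partner chain Ifngr2 went the other way, from 142, 137 and 157 to 90.5, 99.0 and 105 (-0.55 ± 0.12, adjusted p = 0.00773), although with all libraries set to the same total its difference turned positive. In both genes the groups did not overlap. For the type I receptor, Ifnar2 was at 98.4, 115 and 62.2 in the controls and 137, 149 and 163 in Ptf1a cKO, a rise of 0.73 ± 0.21 (adjusted p = 0.0245, and 0.0768 without Ptf1a cKO replicate 3). With the same total computed without the acinar markers and the 100 most abundant genes, the Ifnar2 difference was 0.46 and did not pass (adjusted p = 0.112). Ifnar1, at 145, 151 and 124 against 134, 168 and 192, did not pass (0.22 ± 0.15, adjusted p = 0.29), and its groups overlapped. None of the 19 interferon ligand genes searched (type I, II and III) is in the table, so ligand RNA was not analysed here.

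Behind the receptors, the list of kinases and feedback regulators held 10 of 11 genes, of which none was higher and 1 was lower around a median of 0.15 (log2). The gene that fell was Il10rb, the shared chain of the interferon-λ and interleukin-10 receptors (322, 339 and 300.3 in the controls, 169, 214 and 170.5 in Ptf1a cKO, log2 fold change -0.79 ± 0.13, adjusted p = 0.00189). Stat2, Stat3, Stat5a, Stat5b and Stat6, transducers of interferon and other cytokine signals, had log2 fold changes between -0.07 and 0.32 and did not pass.

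Irf1 and Irf9 were among the IRF genes that were higher, and none was lower. Irf1, an early interferon target that drives class I genes, was at 122, 70.3 and 59.8 in the controls and 223, 118 and 193 in Ptf1a cKO (1.07 ± 0.29, adjusted p = 0.0202, and 0.0739 without control replicate 3). Irf9, the DNA-binding partner of STAT proteins, rose from 93.7, 86.2 and 90.2 to 158, 116 and 165 (0.66 ± 0.15, adjusted p = 0.0099) with no overlap between groups. With the same total computed without the acinar markers and the 100 most abundant genes, the Irf9 difference was 0.40 and its call was lost (adjusted p = 0.0519). Irf5, a factor best known from macrophages, stood at 12.8, 14.0 and 15.0 against 30.1, 30.1 and 51.9 (log2 fold change 1.19 ± 0.31), with all controls under the level needed to enter the table. Irf7, which amplifies type I interferon production, was at 39.2, 26.0 and 45.3 against 72.2, 25.3 and 100.1 and did not pass (0.63 ± 0.43, adjusted p = 0.282). In Irf7 the low value of Ptf1a cKO replicate 2 stood beside values above all controls in replicates 1 and 3. Irf8 had a log2 fold change of 1.29 ± 0.44 and did not pass, and Irf3, the constitutive factor downstream of nucleic acid sensors, had a log2 fold change of -0.01 ± 0.14.

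Antiviral effectors and sensors were higher for 6 of 11 genes, 2 of them (Usp18 and Oas2) genes whose controls all lay under the level needed to enter the table, and lower for none. Their log2 fold changes had a median of 0.85. Ly6e encodes a membrane protein that restricts the fusion of coronaviruses. It stood at 3439, 2760.3 and 3175 normalized counts in the controls and 22485, 18987 and 19635 in Ptf1a cKO, which is 6.52-fold higher (2.71 ± 0.16 on the log2 scale, adjusted p = 1.86e-05). Ddx58, which encodes the RNA sensor RIG-I, was at 46.3, 48.8 and 34.7 against 200.4, 186 and 218, or 4.42-fold higher (2.15 ± 0.15, adjusted p = 4.74e-05). For both genes the 3 Ptf1a cKO libraries lay close together and far above the controls. Ifih1, the sensor MDA5, rose as well (1.21 ± 0.20, adjusted p = 0.00243), and so did Ifitm2, which blocks viral entry (0.85 ± 0.13, adjusted p = 0.00161), although 48.5% of the 50-base windows of its transcript occur in other gene models of the reference annotation. Usp18, the protease that removes ISG15 and damps type I signalling, was at 17.0, 5.00 and 13.7 against 56.0, 23.1 and 57.6 (log2 fold change 1.68 ± 0.46). Oas2, which makes the activator of RNase L, was at 18.5, 13.1 and 27.1 against 73.8, 29.2 and 79.9 (log2 fold change 1.42 ± 0.39). In Usp18 and Oas2, Ptf1a cKO replicate 2 exceeded the highest control by less than the range of the controls. Bst2, Eif2ak2, Ifitm3, Isg20 and Oasl2 had positive log2 fold changes of 0.48 to 0.71 that did not pass. Isg15, the Mx genes and the Ifit genes were not analysed here, as the table at hand has no entry for them.

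Among the 9 other Ifi genes, 4 were higher and none was lower. Of the 4, Ifi27l2b entered the table only through its Ptf1a cKO values. It was at 9.36, 12.7 and 10.1 normalized counts in the controls and 572, 295 and 431 in Ptf1a cKO (4.91 ± 0.23 on the log2 scale), which is 30-fold with the pseudocount included, and the Ptf1a cKO values lay far above the controls in all 3 libraries. Its relative Ifi27l2a stood at 30.2, 24.7 and 50.1 against 123, 57.4 and 159 (1.54 ± 0.36, adjusted p = 0.0113). Both belong to the small ISG12 family of mitochondrial proteins. Ifi30, a lysosomal thiol reductase used in class II presentation, was at 343, 317 and 300.2 against 526, 488 and 664 (0.79 ± 0.14, adjusted p = 0.00268), and its groups did not overlap. Ifi35 was at 63.3, 49.0 and 37.6 against 112, 63.4 and 112 (0.88 ± 0.25, adjusted p = 0.0267, and 0.0922 without Ptf1a cKO replicate 1), with Ptf1a cKO replicate 2 level with the highest control. The DNA-binding Ifi203, Ifi204 and Ifi205 did not pass and had their lowest value of all 6 libraries in Ptf1a cKO replicate 2.

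Interferon-induced GTPases, which attack the vacuoles of intracellular microbes, had 1 of 7 genes higher, none lower and log2 fold changes with a median of 0.99. The count called higher is near the share over all genes (17.1%). Gbp2 was at 61.8, 28.4 and 33.8 normalized counts in the controls and 143, 50.4 and 114 in Ptf1a cKO (1.19 ± 0.38, adjusted p = 0.0386, and 0.129 without Ptf1a cKO replicate 1). Without limma's trend, or with its robust option, Gbp2 did not pass (adjusted p = 0.0638 and 0.0675). The log2 fold changes of Gbp3, Gbp4, Gbp7, Gbp9, Irgm1 and Irgm2 ran from 0.68 to 1.24 without passing. In all 7 GTPase genes Ptf1a cKO replicates 1 and 3 were above every control and replicate 2 was not. Up to 12.8% of the windows of a Gbp transcript occur in other gene models.

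MHC class I chains rose in 5 of 9 genes, with a median log2 fold change of 1.06, and none fell. B2m, the light chain common to all class I molecules, was at 787, 556 and 676 normalized counts in the controls and 4037, 1092 and 2960.4 in Ptf1a cKO, with means of 673 ± 116 and 2696 ± 1490.1 (SD, n = 3 each). That is a log2 fold change of 1.82 ± 0.40 (adjusted p = 0.00847). The classical heavy chain H2-K1 was at 592, 423 and 378 against 1719, 671 and 1736 (1.46 ± 0.34, adjusted p = 0.0109). Both B2m and H2-K1 were above all controls in each Ptf1a cKO library, replicate 2 being the lowest of the 3. The other classical heavy chain, H2-D1, was at 528, 445 and 674 against 1239.7, 636 and 1314 (0.90 ± 0.27, adjusted p = 0.0297, and 0.107 without control replicate 2), and its groups overlapped. The nonclassical H2-T23, a ligand of inhibitory receptors on NK cells, was at 138, 78.5 and 90.8 against 309, 121 and 289 (1.13 ± 0.34, adjusted p = 0.031, and 0.106 without control replicate 2), and H2-Q4 at 183, 103 and 135 against 416, 169 and 444 (1.19 ± 0.35, adjusted p = 0.0279, and 0.0994 without control replicate 2). The calls for H2-D1, H2-T23 and H2-Q4 were also lost without limma's trend and with its robust option (adjusted p = 0.0531 to 0.0782), and that for H2-D1 with the same total computed without the acinar markers and the 100 most abundant genes (0.63, adjusted p = 0.0534). H2-K2, H2-Q2, H2-Q5 and H2-Q10 did not pass (0.45 to 1.06). Class I heavy chains are close copies of each other. Between 8.11% (H2-K1) and 36.9% (H2-Q4) of the 50-base windows of a heavy chain transcript occur in another gene model, so the assignment of single H2 genes is uncertain, while the B2m transcript shared no window with another gene model.

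**Figure D2:**
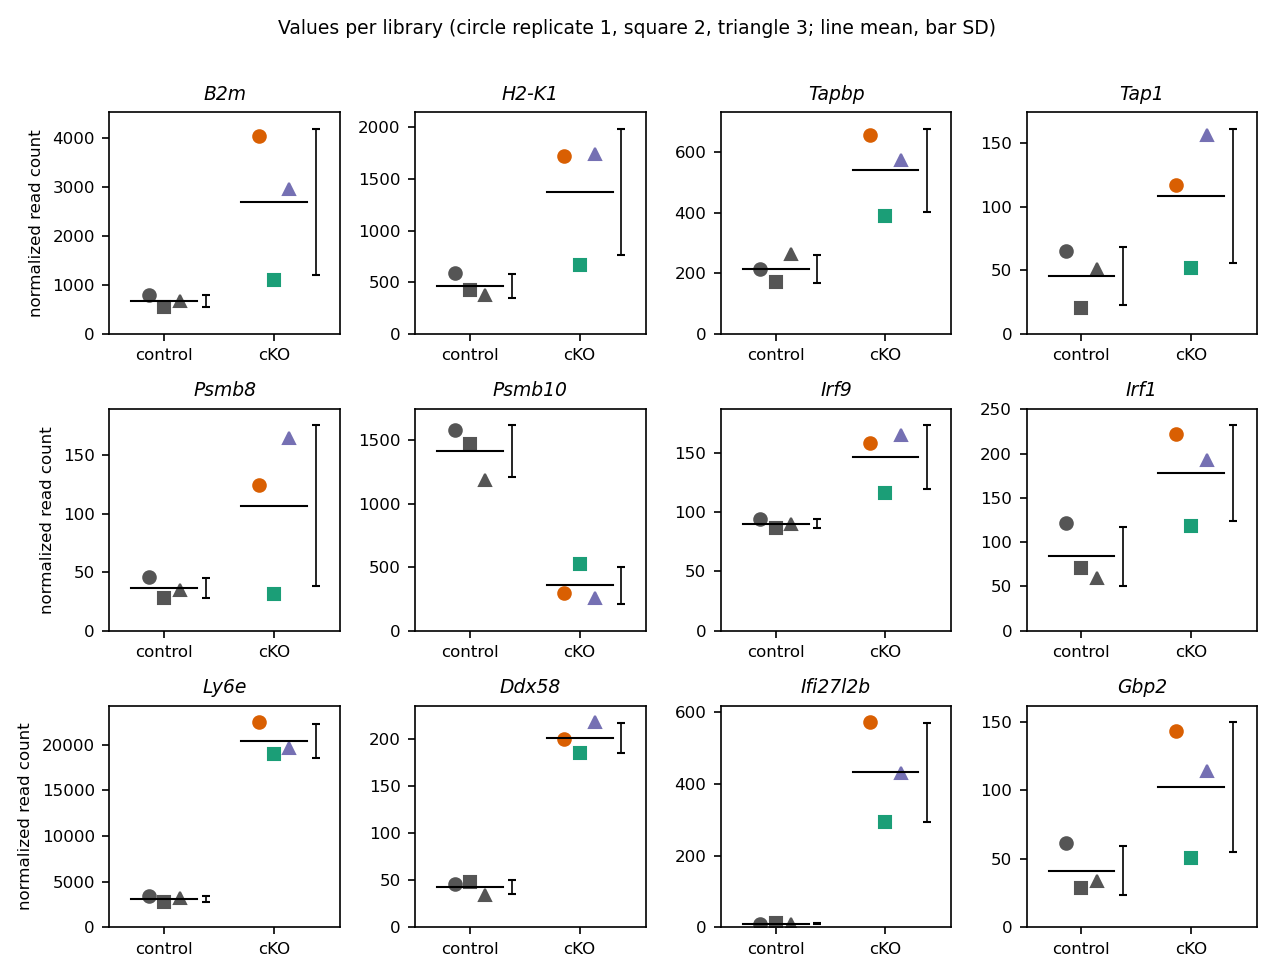
Normalized read counts of 12 genes in the control and Ptf1a cKO (cKO) libraries (1 symbol per library, line at the mean, bar for the SD, n = 3). Ly6e, Ddx58 and Ifi27l2b are far apart between groups and Psmb10 is lower in each Ptf1a cKO library, while in B2m, H2-K1, Psmb8 and Gbp2 the square, Ptf1a cKO replicate 2, is near or within the controls.

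Peptide supply and loading genes were higher in 3 of 10 cases and lower in 1. Tapbp, or tapasin, the chaperone that bridges TAP and the class I heavy chain, was at 213, 170.4 and 263 normalized counts in the controls and 658, 391 and 576 in Ptf1a cKO (1.30 ± 0.21, adjusted p = 0.00204). Psme1, a subunit of the interferon-γ-induced proteasome activator PA28, rose from 60.1, 57.0 and 48.5 to 178, 119 and 177 (1.44 ± 0.18, adjusted p = 5.26e-04). Tap2, one chain of the peptide transporter, was at 77.6, 58.7 and 106 against 165, 117 and 222 (1.02 ± 0.26, adjusted p = 0.0154, and 0.0575 without control replicate 2). In these 3 genes each Ptf1a cKO library was above each control. The partner chain Tap1 was at 65.3, 20.5 and 51.0 against 117, 52.1 and 157 and did not pass (1.19 ± 0.45, adjusted p = 0.0677). Nlrc5, the transactivator of class I genes, was at 34.0, 10.9 and 5.90 against 71.8, 18.3 and 144 (1.86 ± 0.70, adjusted p = 0.0667), with Ptf1a cKO replicate 2 inside the control range. In Nlrc5 control replicate 1 was 3.12 times the control median.

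The catalytic subunits of the immunoproteasome split. Psmb8 was at 46.0, 28.3 and 35.1 normalized counts in the controls and 124, 31.0 and 165 in Ptf1a cKO (1.21 ± 0.50, adjusted p = 0.0924). Psmb9 was at 27.56, 15.5 and 27.1 against 70.1, 17.6 and 82.0 (0.96 ± 0.49, adjusted p = 0.158). Neither passed, and Ptf1a cKO replicate 2 was at control level in both. Psmb10 fell in all 3 Ptf1a cKO libraries, from 1578, 1472 and 1184 to 297, 523 and 253 (log2 fold change -2.03 ± 0.24, adjusted p = 4.76e-04), and stayed lower under every scaling of the libraries that was tried. Psmb10 lies beside Ctrl, a chymotrypsin-like digestive enzyme gene on the same strand. Ctrl was at 511095, 449281 and 403072 normalized counts in the controls and 70489, 113011 and 33766 in Ptf1a cKO (-2.81 ± 0.49, adjusted p = 0.00284), with the Ptf1a cKO libraries in the same order as for Psmb10. Whether reads that run past the end of one gene entered the count of the other was not tested. The GENCODE M21 models of Psmb9 and Tap1 overlap at their starts on opposite strands, while the RefSeq models of these genes do not, and no source used here states that counting used the strand.

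Ratios of immunoproteasome to constitutive subunits do not depend on the scaling of the libraries. The log2 ratio of Psmb8 to Psmb5 was -0.60, -1.29 and -1.85 in the controls and 0.59, -1.83 and 0.42 in Ptf1a cKO. For Psmb9 to Psmb6 it was -3.58, -4.46 and -3.63 against -2.65, -4.36 and -2.10. Both ratios were thus high in Ptf1a cKO replicates 1 and 3 and not in replicate 2, and neither differed by an exact two-sided permutation test (p = 0.3 for each, adjusted p = 0.3 over 4 ratios). Psmb10 to Psmb7 went from 2.41, 2.19 and 1.96 to -0.35, 0.94 and -0.30, a difference of -2.09 between group means. The mean of Psme1 and Psme2 against Psme3, the nuclear activator subunit that interferon does not induce, went from -3.56, -3.97 and -3.19 to -1.51, -2.50 and -1.59, a difference of 1.71. For these last ratios the groups did not overlap (exact permutation p = 0.1 each, adjusted p = 0.2), and 0.1 is the smallest p that 3 against 3 allows. The constitutive subunits Psmb5, Psmb6 and Psmb7 had log2 fold changes of 0.28, 0.19 and 0.05 and did not pass, and Psme3 fell (-0.43 ± 0.15, adjusted p = 0.0475).

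**Figure D3:**
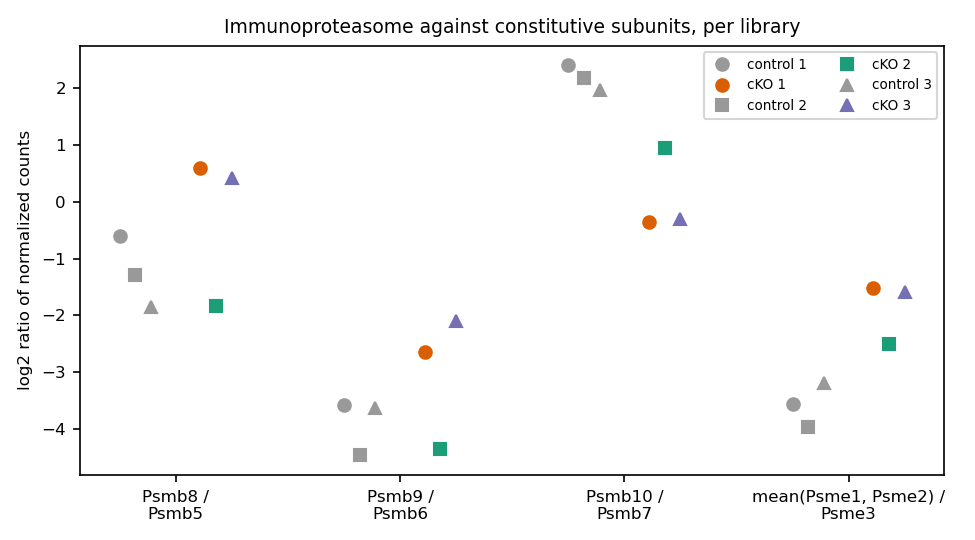
Log2 ratio of normalized counts of each immunoproteasome or PA28 subunit to its constitutive counterpart, for the 3 control (grey) and 3 Ptf1a cKO (colored) libraries. Psmb10 against Psmb7 is lower and the mean of Psme1 and Psme2 against Psme3 is higher in all 3 Ptf1a cKO libraries. The Psmb8 and Psmb9 ratios are raised in replicates 1 and 3 alone.

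The 6 genes that only share a symbol with the family did not move together. Irf2bp2, a corepressor that binds IRF2, rose from 509, 386 and 554 to 1018, 986 and 963 (1.04 ± 0.14, adjusted p = 9.09e-04), and 19.7% of its windows occur in another gene model. Irf2bp1 fell from 221, 248 and 262 to 201, 193 and 184 (-0.33 ± 0.11, adjusted p = 0.04957), a call at the threshold that was lost in each fit without 1 library and turned positive with all libraries set to the same total. H2-Ke2, H2-Ke6, Irf2bpl and Isg20l2 had log2 fold changes between -0.20 and 0.08. Without these 6, 26 of 64 genes were higher and 2 lower, with a median of 0.85.

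Ptf1a cKO replicate 2 stood apart from the other Ptf1a cKO libraries in these genes. It was the lowest of the 3 Ptf1a cKO libraries for 54 of the 70 genes (77.1%), against 34.3% of all genes. For 56 of the 70, replicates 1 and 3 were both above every control, and in 31 of those 56 (55.4%) replicate 2 was not, against 18.9% of the genes with that property in the whole table. The 31 genes comprised all 7 GTPases, 7 of 9 class I chains and 6 of 10 peptide supply genes, but 2 of 11 antiviral effectors and no receptor. The counts here include the 10 genes that entered the table only through their Ptf1a cKO values. With replicate 2 left out, 50 of the 70 genes were higher (71.4%) and 2 lower (2.86%), while over all genes 18.1% were higher and 17.1% lower. The log2 fold change of Psmb8 was then 1.90 (adjusted p = 2.45e-04), that of Tap1 1.64 (0.00957) and that of Nlrc5 2.62 (0.00485). Without replicate 3 of Ptf1a cKO, or without replicate 2 of the controls, 17 of the 70 were higher, and Irf1, Gbp2, H2-D1, H2-T23 and H2-Q4 were among the calls lost in both. Over all genes, calls in either direction numbered 2431 and 2363 in those fits, beside 3475 with all libraries. Ly6e, Ddx58, Ifi30, Psmb10, Psme1, Tapbp, B2m and H2-K1 were among the genes that passed in each of the 6 fits without 1 library. Replicate 2 was the male among the Ptf1a cKO mice and kept the most Ptf1a RNA, and the part of either in these values was not tested. With sex as a covariate, 29 of the 30 calls remained. Both groups held the same number of each sex, so that fit left the fold changes unchanged and cannot address why replicate 2 differed.

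**Figure D4:**
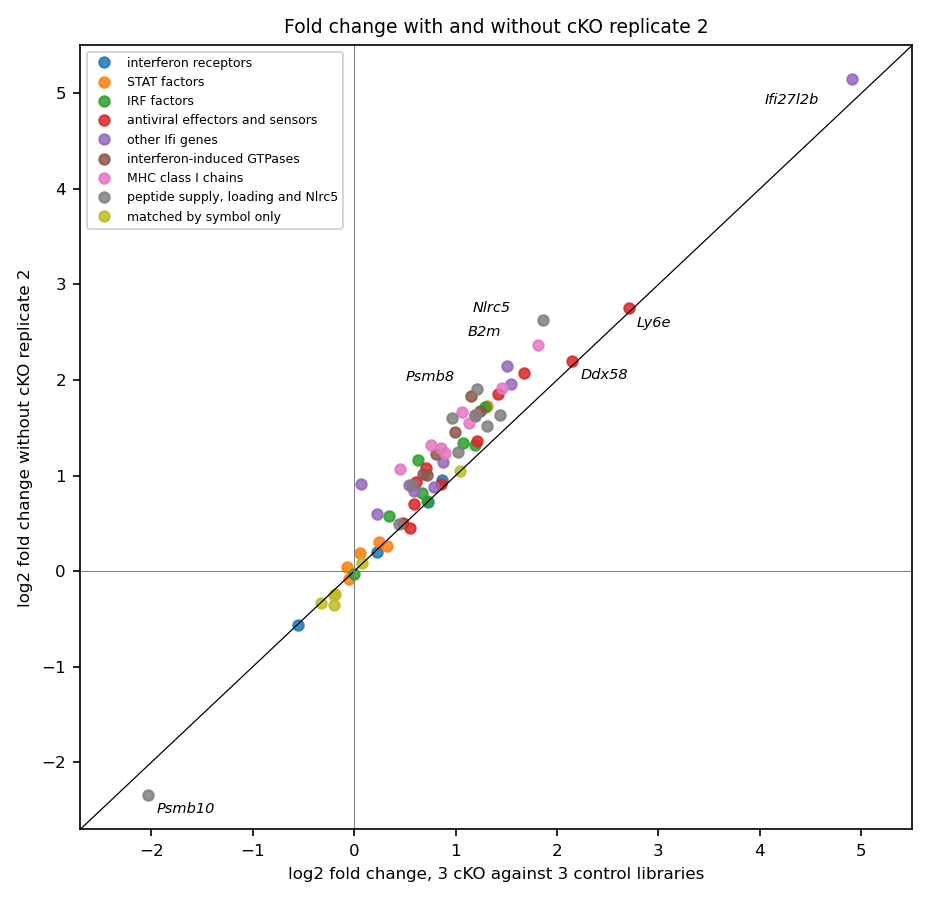
Log2 fold change of each of the 70 genes with all libraries (horizontal) and without Ptf1a cKO replicate 2 (vertical), colored by role, with the line of equality. Most GTPases, class I chains and peptide supply genes lie above the line, Ly6e and Ddx58 lie on or near it, and Psmb10 lies below.

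Genes of the same pathway outside the 70 changed in both directions, with the further interferon-stimulated genes mostly upward. Of 35 further interferon-stimulated genes, 25 are in the table, where 11 were higher and 1 was lower around a median of 0.94 (log2). In 7 of the 25, among them 1 of the 11, all controls lay under the level needed to enter the table. Lgals3bp, a secreted glycoprotein, was at 315, 288 and 355 normalized counts in the controls and 1539.9, 636 and 1326 in Ptf1a cKO (1.77 ± 0.28, adjusted p = 0.00187). The GTPase Igtp was at 32.0, 13.2 and 23.9 against 150.4, 24.5 and 132 (1.73 ± 0.59, adjusted p = 0.0488), again with replicate 2 inside the control range. Zc3hav1, an antiviral RNA-binding protein, rose by 1.15 ± 0.21 (adjusted p = 0.00329). Cmpk2, a mitochondrial nucleotide kinase, fell from 75.3, 71.2 and 93.5 to 26.4, 36.8 and 42.7 (-1.12 ± 0.21, adjusted p = 0.0035). Of 15 nucleic acid sensing genes 9 are in the table, with 2 higher and 1 lower. Tlr3, the endosomal sensor of double-stranded RNA, was at 17.2, 11.8 and 11.8 against 38.3, 33.0 and 48.2 (log2 fold change 1.35 ± 0.29), and it too entered the table only through its Ptf1a cKO values. Unc93b1, which carries Toll-like receptors to endosomes, was at 91.1, 56.4 and 88.8 against 200.02, 147 and 252 (1.30 ± 0.23, adjusted p = 0.00292). Mavs, the adaptor through which RIG-I and MDA5 signal, fell from 356, 384 and 354 to 249, 252 and 229 (-0.58 ± 0.11, adjusted p = 0.00351). Among 9 constitutive proteasome and endoplasmic reticulum genes, the peptide trimming enzyme Erap1 (0.95 ± 0.18, adjusted p = 0.00397) and the chaperone Calr (0.56 ± 0.14, adjusted p = 0.0145) were higher, and Psme3 was lower. For the sensing list and the proteasome list, the counts called are near the shares over all genes, 17.1% higher and 16.8% lower.

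Marker genes of other cell types moved with genotype beside these groups. Of 22 leukocyte markers 13 are in the table, and 8 were higher and none was lower (median log2 fold change 1.29). In 5 of the 13, 1 of them higher, all controls lay under the level needed to enter the table. The summed values of the 13 were 494 to 867 normalized counts in the controls and 1726, 1297 and 3427 in Ptf1a cKO replicates 1 to 3. The 5 myeloid markers Cd68, Emr1, Itgam, Csf1r and Lyz2 were all higher, with sums of 397 to 647 in the controls and 1357, 1053 and 1849.9 in Ptf1a cKO, so myeloid RNA was raised in replicate 2 as well. The 3 lymphocyte markers Cd4, Lck and Cd79b summed to 6.58 to 31.7 in the controls and to 31.1, 9.95 and 267 in Ptf1a cKO. The T cell gene Cd4 was at 12.5, 2.65 and 14.7 in the controls and 11.98, 2.79 and 78.8 in Ptf1a cKO. Lck, a T cell kinase, was at 11.3, 1.42 and 7.47 against 19.2, 1.43 and 93.7, and the B cell gene Cd79b at 7.94, 2.51 and 6.77 against 0, 5.73 and 94.3. In Ptf1a cKO replicate 1 Lck was thus above every control, Cd4 inside the control range and Cd79b at 0. The 9 class I chains summed to 1787 to 2505 normalized counts in the controls and to 8353, 2849 and 7178 in Ptf1a cKO. Glycam1, a marker of lymph node venules, reached 356 normalized counts in replicate 3 of Ptf1a cKO and 2.25 or less in the other 5 libraries. Without that library 2 of the 5 class I calls held, B2m and H2-K1 (log2 fold changes 1.65 and 1.23, adjusted p = 0.0287 and 0.0358), and those for H2-D1, H2-Q4 and H2-T23 were lost (adjusted p = 0.0931, 0.0906 and 0.0993).

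MHC class II genes, which mark antigen-presenting cells, had 3 of 6 higher and the same low value in replicate 2. Cd74, the invariant chain, was at 636, 305 and 402 against 2491, 529.8 and 2241 (1.74 ± 0.53, adjusted p = 0.0313), H2-Aa at 326, 149 and 173 against 1305, 329 and 1344 (2.02 ± 0.51, adjusted p = 0.0149), and H2-Ab1 rose by 1.77 ± 0.54 (adjusted p = 0.0335). Of the fibroblast markers 5 of 6 were higher, with the highest sum, 9485, in Ptf1a cKO replicate 2 (4931 and 6431 in replicates 1 and 3, 2625 to 2945 in the controls). None of the 6 endothelial markers passed. Of the 10 acinar markers 8 were lower and none was higher, and 3 of the 6 ductal markers measured were higher, with Sox9 at 131, 136 and 109 against 625, 633 and 516 (2.21 ± 0.13, adjusted p = 2.00e-05). The part of these cell types in the values of the 70 genes was not tested.

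**Figure D5:**
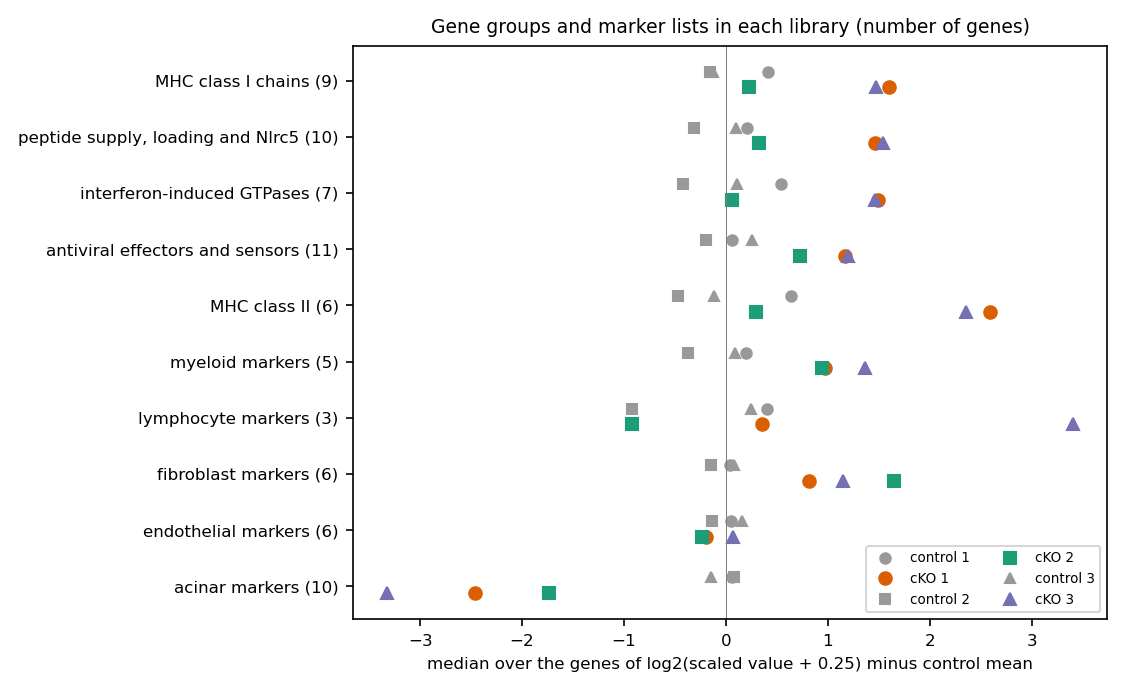
Median over the genes of each group or marker list (rows, number of genes in brackets) of log2(scaled value + 0.25) minus the control mean, in each control (grey) and Ptf1a cKO (colored) library. Class I, peptide supply, GTPase and class II genes are high in Ptf1a cKO replicates 1 and 3 and lower in replicate 2, myeloid markers are raised in all 3, and lymphocyte markers are raised in replicate 3.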

How the data were processed

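According to the methods and labels, RNA from 6 whole pancreata was made into TruSeq libraries and sequenced as single-end reads, and the submitters' processing notes name TopHat2 2.0.4, Bowtie 0.12.7.0, SAMtools 0.1.18.0, HTSeq 0.6.0 and genome build mm9. The authors deposited 1 signal value per gene and library, a normalized read count that is not whole. Their methods name TMM normalization. The unit differs from counts, so the log-scale test was used and the count model listed as an alternative was not run. A further 3 entries that name no gene held 75.7% to 82.6% of a library's values and were left out. Depth cannot be read from these values, so precision rests on the 3 mice per group.

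Values were divided by 13.6, 0.25 was added (3.41 normalized counts), and log2 was taken. A filter on means under 0.25 took out 0 genes. limma 3.58.1 (lmFit, eBayes with trend, R 4.3.3) compared the groups, two-sided, with Benjamini-Hochberg adjustment over 10245 genes and a threshold of 0.05. Fold changes on this scale understate those of low genes, and errors of fold changes are standard errors. The subunit ratios were compared by an exact permutation test. The fit was tested on simulated data.

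Members and gene lists were chosen with earlier results of these data known. Values in each library are given for the 4 called genes with the largest change in each role, for a set of 17 signalling and presentation genes where listed, and for genes with a library over 3 times its group median. The comparison of replicate 2 with the other Ptf1a cKO libraries, and the values of Irf8, Irf3, Ifih1, Ifitm2, Psme2, Ctrl and H2-Ab1 were added after the data were seen. A few single-gene results are not reported here. Promoters are from RefSeq (GRCm38.p6) and shared 50-base windows from GENCODE M21, a different build from mm9, so no gene positions are given. Alternatives were other pseudocounts, filters, scalings and limma settings, sex or replicate number as a term, a threshold of 0.01, and each library left out.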

Additional observations from a re-analysis of the deposited data

How the results depend on the processing

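The number of the 70 genes higher in Ptf1a cKO (27) moved to 69 with all libraries set to the same total, which raised the median gene by 1.48 on the log2 scale, to 42 with the replicate block and to 13 at an adjusted p under 0.01, and ran from 17 to 50 in the fits without 1 library. The number lower (3) became 1 with the same total and was 2 in every fit without 1 library. The median log2 fold change of the 70 genes (0.80) became 2.24 with the same total and ran from 0.68 to 1.07 without 1 library. Over all genes and both directions, 3475 calls became 9716 with the same total, 3525 with the replicate block and 1794 at an adjusted p under 0.01. Without 1 library they ran from 2363 to 3601. With the same total Ifngr2 (0.90) and Irf2bp1 (1.14) were positive, and with the same total computed without the acinar markers and the 100 most abundant genes Ifnar1 was at -0.046. The same scaling ended the calls for Ifnar2 (0.46), Irf9 (0.40) and H2-D1 (0.63). Without the 6 genes that share only a symbol, which was chosen after seeing the data, 26 were higher and 2 lower. The differences of the 4 subunit ratios kept their sign in every alternative run. Without 1 library they lay between 0.54 and 1.75 for Psmb8, 0.39 and 1.52 for Psmb9, and -2.51 and -1.87 for Psmb10. For the mean of Psme1 and Psme2 they lay between 1.51 and 2.02. The cause of these shifts was not tested.

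The replicate numbers are not said to mark shared litters or days. The deviations of same-numbered libraries correlated over genes at 0.04, 0.13 and 0.14, and Ptf1a cKO replicate 1 correlated best with control replicate 2 (0.08), so the block's 44 calls (29 of the 30 genes and 15 others) are not used as a paired result.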

Other observations

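The spread between mice was wider for these genes in Ptf1a cKO than in control. The SD of the log2 values was larger in Ptf1a cKO for 55 of the 70 genes (78.6%), against 52.8% of all genes. The median SD of the 70 genes was 0.28 in the controls and 0.49 in Ptf1a cKO, while over all genes it was 0.17 in both groups. Among genes with a promoter window, 22 were high in Ptf1a cKO replicates 1 and 3 and not in replicate 2. Matches to the response element letters were found for 10 of these 22, and for 6 of the 18 that were above the controls in all 3.

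Spp1, which encodes the secreted glycoprotein osteopontin and marks ductal cells, was also lowest of the Ptf1a cKO libraries in replicate 2. It was at 1677, 1959 and 1327 normalized counts in the controls and 87512, 20971 and 105340 in Ptf1a cKO (5.14 ± 0.52 on the log2 scale, limma adjusted p = 2.27e-04). Cxcl13, a B cell attracting chemokine, was at 2.45, 3.57 and 11.1 in the controls and 10.05, 54.9 and 49.2 in Ptf1a cKO, so that replicate 2 was not low for it, and its controls all lay under the level needed to enter the table.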
